A study of Mus musculus with 29 samples.

Results

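Borders on the mitochondrial chromosome were taken from 6 ChIP-exo libraries of the glucocorticoid receptor (GR) in mouse liver: every listed border with chrM as its chromosome was kept, which gave 5109 of 255667 borders. The lists held 866, 848 and 838 mitochondrial borders in wild type (WT) livers of 6am, of 6pm and of prednisolone treatment, and 839, 846 and 872 in GRdim livers under the same conditions. WT animals were GR+/+ litter mates of the mutants, and GRdim animals carried a receptor with a mutation that is known to impair its dimerization. All were males of 12 weeks on a back-cross to BALB/c and on a light cycle of 12 h, so that the light phase began at 6am and the dark phase at 6pm. For the third condition, livers were collected at 6am from mice that had carried pellets of prednisolone, a synthetic glucocorticoid, under the skin for 24 h (12 mg/kg). Nuclei of liver were purified before GR was precipitated, with a pair of antibodies named for every library. Each library was 1 pool of 2 replicates, so no spread between animals can be given and no test between conditions was made. The WT library of 6pm stood apart from the other 5 in the level and distribution of its mitochondrial tags. Several results that rest on it are given with and without it, but the counts of loci by genotype include it throughout. The 95% intervals below cover the counting of tags or borders only.

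Mitochondria keep a small circular genome in many copies per cell, which encodes subunits of the respiratory chain together with the RNAs that translate them. By convention its numbering starts at the transfer RNA gene for phenylalanine, next to the ribosomal RNA genes, and ends in the non-coding control region, which holds the promoters and a site of replication start. GR is a nuclear receptor that binds DNA after its ligand has released it from chaperones, and a presence of GR in mitochondria has been described in several cell types. In ChIP-exo an exonuclease trims each strand of the precipitated DNA up to the cross-linked protein, so that bound proteins leave a border on each strand. The RefSeq table of GRCm38.p6 names 37 mitochondrial genes, of which 13 encode proteins, 2 ribosomal RNAs and 22 transfer RNAs, with TrnF first and TrnP last in order. The files are in mm9, so that table was used for names and order only and no border was assigned to a gene, an exon or the control region.

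A border is a feature of 10 bp on 1 strand with a count of tags, given here also as RPM, its tags scaled to the size of the library. Positions are starts as deposited; whether counting began at 0 or at 1 was not stated in the sources used here, so they may be off by 1 bp. Listed borders held 675835 to 1638947 tags per library, which were 1.54% to 3.27% of all its tags. The 9 ChIP-seq peak lists of the same study, for GR and for C/EBPβ, held no mitochondrial peak among 107997 peaks. Input libraries were not analysed here, so the mitochondrial signal without an antibody was not measured.

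The mitochondrial chromosome was covered by borders almost from end to end, with 1 long exception. Starts ran from 2 in the libraries with the lowest start, and the last border ended at 16300. Between position 6429 and position 10995 no library listed any border on either strand, a stretch of 4566 bp. In single libraries the last border before this stretch ended between 6427 and 6429 and the first one after it started between 10995 and 10999, so its edges recurred in all 6. The border after the stretch was a plus-strand border with 1.74 to 3.63 RPM, and the next start of any library was 11017. How reads that map to several places were treated was not stated in the sources used here.

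Outside that stretch the borders were dense and nearly equal in number on the strands. In the 11 complete bins of 1000 bp that lay clear of it, each strand of each library held 18 to 48 borders, with a median of 38. The median step from 1 border to the next on the same strand was 21 to 24 bp, and no 2 borders of a strand started less than 6 bp apart. Borders nearer than 10 bp overlap, and whether a tag was then counted for both was not stated in the sources used here. Plus-strand borders made up 50.5% to 52.4% of the mitochondrial borders.

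Mitochondrial borders were few but carried a large share of the listed tags. They held 28.6% of the listed tags in WT at 6am (95% exact interval 28.5 to 28.7), 5.21% at 6pm (5.17 to 5.25) and 30.5% after prednisolone (30.5 to 30.6). In GRdim they held 74.6% (74.5 to 74.8), 28.9% (28.77 to 28.98) and 54.2% (54.1 to 54.3). The GRdim library was above the WT library under each condition, and 6pm was the lowest condition in each genotype. Of listed borders, by contrast, 1.30%, 1.55% and 1.70% were mitochondrial in WT and 5.83%, 2.37% and 2.48% in GRdim.

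**Figure D1:**
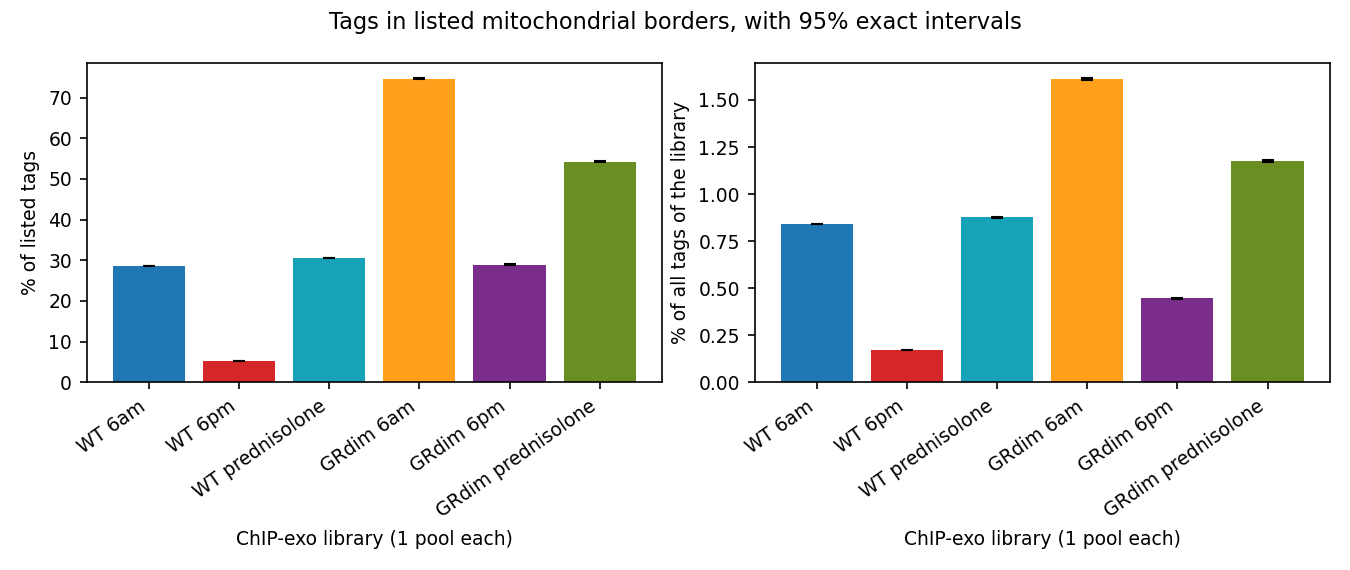
Bars give the percentage of listed tags (left) and of all tags of the library (right) that lay in mitochondrial borders, for the 6 ChIP-exo libraries, with exact 95% intervals of the counting. WT 6pm is lowest on both scales, at 5.21% and 0.170%, and GRdim 6am highest, at 74.6% and 1.61%.

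The share of listed tags also moves with the nuclear borders, whose summed signal ranged from 5472 RPM in GRdim at 6am to 30996 RPM in WT at 6pm. Measured against all tags of the library, mitochondrial borders held 8411 RPM in WT at 6am, 1703 RPM at 6pm and 8768 RPM after prednisolone. In GRdim they held 16115, 4455 and 11762 RPM. The order of the libraries was nearly the same as for the listed tags, but the gaps between genotypes were smaller: WT stood at 0.522 times GRdim at 6am (0.520 to 0.524), at 0.382 times at 6pm (0.379 to 0.386) and at 0.745 times after prednisolone (0.743 to 0.748). The summed nuclear borders went the other way and were 3.84, 2.82 and 2.01 times as high in WT as in GRdim. These sums run over lists of unequal length, with 65707 nuclear borders in WT and 13552 in GRdim at 6am. Over nuclear loci listed in both libraries the median log2 ratio of WT to GRdim was -0.23 at 6am, 0.87 at 6pm and 0.06 after prednisolone. At 6pm the mitochondrial signal was 4.94 times lower than at 6am in WT and 3.62 times lower in GRdim. The summed nuclear signal of 6pm stood at 1.48 and 2.01 times its 6am value. From 6am to 6pm the nuclear lists went from 65707 to 53788 borders in WT and from 13552 to 34812 in GRdim. Over nuclear loci listed at both times the median log2 ratio of 6pm to 6am was 0.86 in WT and -0.06 in GRdim. After prednisolone the mitochondrial signal stood at 1.04 times the 6am value in WT (1.04 to 1.05) and at 0.730 times in GRdim (0.727 to 0.733). The WT sum after prednisolone was 357 RPM above that of 6am. It included a plus-strand border at 16035 with 499 RPM, more than that difference, which the WT library of 6am did not list.

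Single mitochondrial borders reached levels far above those of nuclear borders in 5 of the 6 libraries. The median mitochondrial border held 3.54, 1.73 and 2.36 RPM in the WT libraries of 6am, 6pm and prednisolone, and 5.06, 2.67 and 3.74 RPM in GRdim. These medians were 4.14 times that of the nuclear borders of the same library in WT at 6pm and 9.21 to 15.3 times in the other 5. Of the 100 borders with the most tags, all 100 were mitochondrial in each GRdim library, 96 in WT at 6am and 93 after prednisolone, but 11 in WT at 6pm. In GRdim, 483, 376 and 536 mitochondrial borders exceeded the strongest nuclear border of their library, which had 4.39, 2.90 and 2.99 RPM. In WT, where the strongest nuclear borders had 20.8, 28.0 and 35.1 RPM, 66 did so at 6am, 51 after prednisolone and 1 at 6pm.

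The tags were also unevenly spread over the chromosome, and for WT at 6pm the difference from the other libraries was largest at its end. The chromosome was described in 3 stretches: up to the uncovered stretch, from there to 15000, and from 15000 on, a limit chosen after the values had been seen. The last stretch held 79, 77 and 77 borders in the WT libraries and 84, 72 and 82 in the GRdim libraries. It took 51.2% of the mitochondrial tags in WT at 6am (51.1 to 51.4), 61.2% after prednisolone (61.1 to 61.4) and, in GRdim, 54.2% at 6am, 52.7% after prednisolone and 45.0% at 6pm. In WT at 6pm it took 11.5% (11.2 to 11.7). Thus the last stretch took the largest share of the 3 in 5 libraries and the smallest in WT at 6pm, which listed about as many borders there. Per border the signal of WT at 6pm was not lower in the last stretch. Its median border there held 2.27 RPM, against 1.58 and 1.82 RPM in the stretches before and after the uncovered one.

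**Figure D2:**
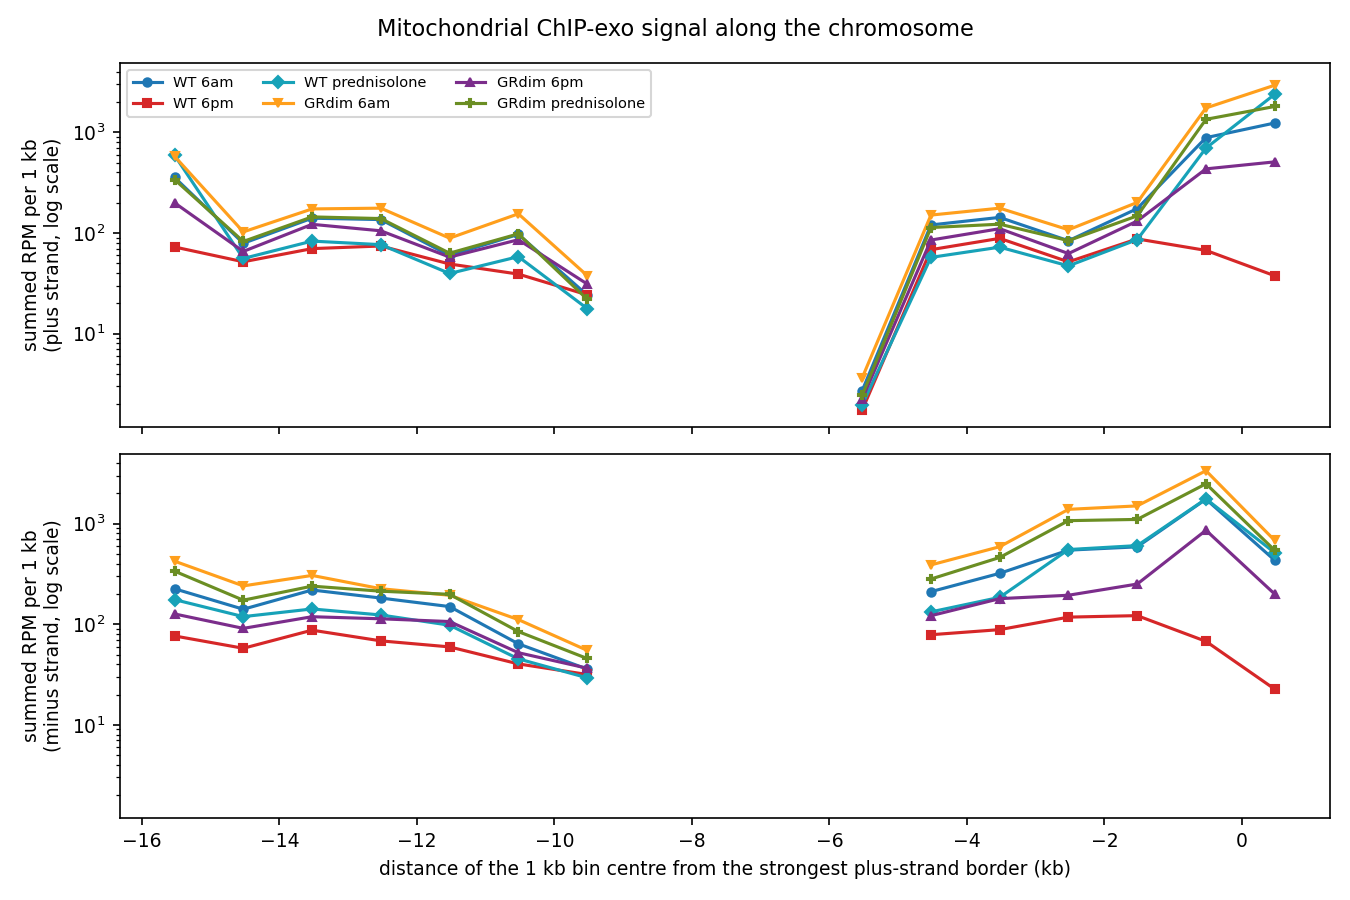
Lines give the summed RPM of listed borders per 1 kb of the mitochondrial chromosome, on a log axis, for the plus strand (top) and the minus strand (bottom) of the 6 libraries, against the distance in kb from the strongest plus-strand border; the last bin is only partly filled by the chromosome, and empty bins are left out. In the last 2 bins the summed RPM of WT 6pm falls on both strands, as does its number of borders. The other 5 libraries rise on the plus strand and peak in the bin before the last on the minus strand.

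By stretch, WT at 6pm stood at 0.420 times WT at 6am (0.415 to 0.425) before the uncovered stretch, at 0.322 times (0.318 to 0.326) after it and at 0.0453 times (0.0443 to 0.0463) from 15000 on. The last of these is a 22.1-fold lower RPM (21.6 to 22.6). GRdim at 6pm stood at 0.457, 0.253 and 0.229 times GRdim at 6am in the same stretches, which is a 4.36-fold lower RPM from 15000 on. Between the genotypes at 6pm, WT was 1.63-fold lower than GRdim before the uncovered stretch, 1.62-fold lower after it and 10.3-fold lower (10.0 to 10.5) from 15000 on. At 6am WT stood at 0.666, 0.486 and 0.493 times GRdim, and after prednisolone at 0.760, 0.514 and 0.867 times. The 6pm libraries therefore differed by stretch far more than the others did. After prednisolone the WT signal stood at 0.868, 0.795 and 1.25 times the 6am value in the 3 stretches, and the GRdim signal at 0.760, 0.751 and 0.709 times.

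The strands differed in level along the chromosome. From 13000 to 14000 the minus strand held more RPM than the plus strand in all 6 libraries, by 6.50, 2.28 and 11.7 times in the WT libraries of 6am, 6pm and prednisolone and by 12.9, 3.10 and 12.7 times in GRdim. From 14000 to 15000 the minus strand was 1.39 times as high as the plus strand in WT at 6pm and 1.91 to 7.45 times in the other libraries. From 16000 on the order turned, and the minus strand held 0.601 times the plus strand's RPM in WT at 6pm and 0.214 to 0.391 times in the other libraries. Over the whole chromosome, plus-strand borders held 42.2%, 46.1% and 48.9% of the mitochondrial tags in the WT libraries of 6am, 6pm and prednisolone, and 41.3%, 45.0% and 38.5% in GRdim, whereas nuclear tags were split nearly evenly, at 50.0% to 50.7% on the plus strand. Prednisolone and 6am differed in opposite directions in the genotypes, by 6.70 percentage points in WT and by -2.84 in GRdim. A plus-strand border at 16035, with 499 RPM, was listed in WT after prednisolone but not at 6am and enters the WT difference.

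Individual borders were compared through loci, in which borders of 1 strand whose starts lay within 5 bp of the next were joined and, for each library, the border with the most tags was used. The 5 loci with the highest mean RPM on each strand among those of all 6 libraries lay from 15000 on, with the single exception of the minus-strand locus at 13164. The strongest was a plus-strand border at 16023 to 16033. It held 475 RPM in WT at 6am, 8.54 RPM at 6pm and 701 RPM after prednisolone, and 1165, 283 and 678 RPM in GRdim. It ranked first of the library's mitochondrial borders in 4 libraries, second in GRdim after prednisolone and 7 in WT at 6pm. A neighbouring plus-strand border started at 16014 or 16015 in 5 libraries, with 448 RPM in WT at 6am, 8.58 RPM at 6pm and 616 RPM after prednisolone, and 1080 and 683 RPM in GRdim at 6am and after prednisolone. GRdim at 6pm listed only the border at 16023 here, while WT after prednisolone had a further one at 16035 with 499 RPM and WT at 6pm one at 16036 with 7.45 RPM. These features overlap, so their tags may be shared.

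At 16023 the WT library of 6pm stood 55.7-fold below that of 6am and the GRdim library of 6pm 4.12-fold below its 6am library. WT stood 2.45-fold below GRdim at 6am and 33.2-fold below it at 6pm, but at 1.03 times GRdim after prednisolone (1.02 to 1.05). Prednisolone went with a higher value than 6am in WT, at 1.47 times (1.451 to 1.497), and with a lower one in GRdim, at 0.581 times (0.573 to 0.590).

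The strongest minus-strand locus, at 13164 to 13174, behaved differently from those near the end of the numbering. It held 176 RPM in WT at 6am, 29.2 RPM at 6pm and 222 RPM after prednisolone, and 514, 36.4 and 339 RPM in GRdim. It was the strongest mitochondrial border of the WT 6pm library, 16.9 times that library's median, and ranked 17 in GRdim at 6pm. Here the fall from 6am to 6pm was larger in GRdim, 14.1-fold, than in WT, 6.04-fold, and at 6pm WT stood at 0.803 times GRdim (0.745 to 0.865). A neighbour at 13151 fell from 252 to 18.7 RPM between GRdim at 6am and 6pm. The next strongest borders of WT at 6pm were also on the minus strand, at 14285 with 17.6 RPM, 13150 with 14.8 RPM, 14259 with 11.8 RPM and 14248 with 10.00 RPM.

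The other loci of the minus strand lay at 15521, 16045, 15486 and 15537. The one at 15521 held 235 RPM in WT at 6am, 4.34 RPM at 6pm and 207 RPM after prednisolone, and 413, 112 and 336 RPM in GRdim. The one at 16045 held 146, 3.48 and 168 RPM in WT and 297, 87.4 and 248 RPM in GRdim. In both, WT at 6pm was the lowest library, 54.3-fold and 42.0-fold below WT at 6am, and GRdim at 6am was the highest. The loci at 15486 and 15537 held 66.1 to 242 RPM and 70.0 to 245 RPM in the 5 other libraries and 3.43 and 2.32 RPM in WT at 6pm.

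On the plus strand the locus at 15457 held 140, 3.22 and 92.8 RPM in the WT libraries of 6am, 6pm and prednisolone and 258, 64.9 and 235 RPM in GRdim. The locus at 15477 ranged from 54.1 to 243 RPM in the 5 libraries other than WT 6pm, the one at 15591 from 58.0 to 181 RPM and the one at 16094 from 56.1 to 165 RPM. In WT at 6pm they held 3.20, 3.64 and 2.83 RPM. In that library 9 of the 10 loci thus stood at 1.34 to 4.94 times its median border, and the one at 13164 at 16.9 times, above the 13.6 times of GRdim at 6pm.

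**Figure D3:**
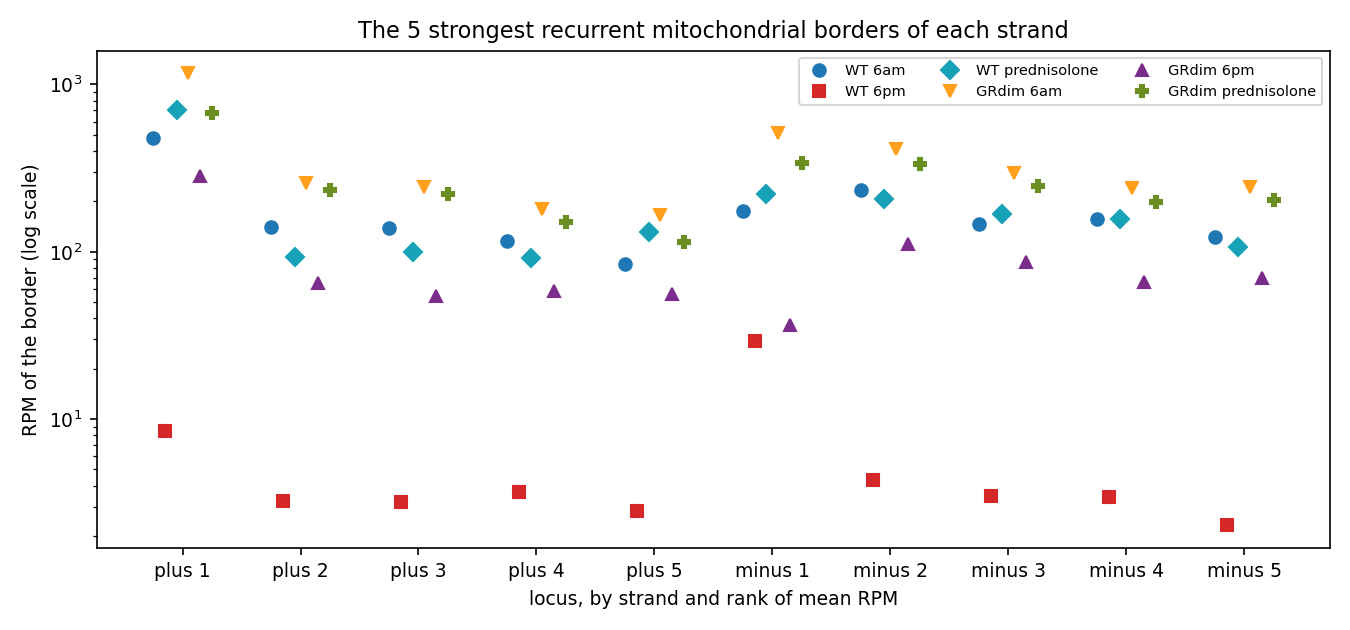
Points give the RPM, on a log axis, of the 5 loci with the highest mean RPM on the plus strand (16023, 15457, 15477, 15591 and 16094 in order of rank) and on the minus strand (13164, 15521, 16045, 15486 and 15537), 1 point for each library. WT 6pm lies lowest at every locus, far below the rest except at the first minus-strand locus, where it has 29.2 and GRdim 6pm 36.4 RPM.

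How far the same borders recurred depended on the distance within which starts were matched. Within 5 bp, the 5109 borders formed 1136 loci, of which 495 (43.6%) were listed in all 6 libraries and 198 (17.4%) in 5. The share in all 6 libraries was 29.2% within 2 bp and 0.389% with identical starts. A further 137 (12.1%) were listed in 1 library alone. Of the loci in all 6 libraries, 270 lay on the plus and 225 on the minus strand, and the starts of the 6 libraries spanned a median of 2 bp. Among 159344 nuclear loci, 1364 (0.856%) were in all 6 libraries and 68.6% in 1 alone, but the nuclear lists differed in length from 13552 to 65707 borders, while the mitochondrial ones were of nearly equal length.

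In single libraries, 57.9% to 60.2% of the mitochondrial borders belonged to loci of all 6, and these carried 66.6% to 73.5% of the mitochondrial tags. Recurrence did not differ much along the chromosome, with 43.5%, 42.7% and 47.6% of the loci of the 3 stretches in all libraries. Since the borders are dense, some matches are met by position alone: start positions within 5 bp of a listed start of the same strand made up 38.9% to 40.5% of the covered part of the chromosome. Against that, 75.2% to 85.4% of the borders of a library had a border of another library within 5 bp. With identical starts required the share was 17.5% to 34.4%, where listed starts took up 3.58% to 3.72% of positions. The matches were therefore more frequent than the covered positions at each distance given here, also for pairs with WT 6pm, where 75.2% to 79.3% matched within 5 bp.

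Most loci were listed in both genotypes. Of the 1136 loci, 947 (83.4%) had a border in each genotype, against 20.1% of all loci, nuclear ones included. Only among WT libraries there were 95 (8.36%), against 59.4% of all loci, and only among GRdim libraries 94 (8.27%), against 20.4%. In all 3 WT libraries and no GRdim library there were 3 loci (0.264%), against 2.22% of all loci, and in all 3 GRdim libraries and no WT library 6 (0.528%), against 0.154%. The nuclear lists of WT were longer than those of GRdim under each condition, and their part in these shares was not tested. The strongest of the former was a minus-strand border at 16061 with 83.0, 2.41 and 97.1 RPM in the WT libraries of 6am, 6pm and prednisolone, and the nearest GRdim border started 16 bp away. The other 2 lay on the minus strand at 11835 to 11838, with 1.23 to 3.30 RPM, and at 3093 to 3096, with 0.603 to 1.42 RPM. The nearest GRdim borders were 11 to 14 bp and 9 to 12 bp from these 2 loci. The strongest of the 6 in GRdim lay on the minus strand at 11241 to 11246, with 15.6, 5.61 and 9.28 RPM at 6am and 6pm and after prednisolone. It was followed by the minus-strand locus at 3163 to 3171 with 2.90 to 5.34 RPM and the plus-strand locus at 12367 or 12368 with 2.28 to 3.79 RPM. The nearest WT borders were 6 to 15 bp from these 3 loci. For the named loci of either genotype, a shift in the called start and an absent border therefore cannot be told apart. The 6am libraries alone shared 7 loci (0.616%), the 6pm libraries alone 13 (1.14%) and the prednisolone libraries alone 6 (0.528%). Of all loci these patterns took 0.590%, 1.23% and 0.900%, so the mitochondrial shares lay near the background.

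Among loci listed in both libraries of a pair, the order by strength was closer between 5 of the libraries than with WT 6pm. Over loci listed in both libraries of a pair, 676 to 743 in number, Spearman's rho of the RPM was 0.883 to 0.983 in the 10 pairs without WT 6pm, with a median of 0.955. When loci of either library were kept, with 0 for the unlisted ones, the median was 0.605, and 0.391 for pairs with WT 6pm. Of the pairs without WT 6pm, the closest was GRdim at 6am and after prednisolone, with 0.983 over 727 loci. The least close was GRdim at 6pm and after prednisolone, with 0.883 over 692 loci. Among these 10 pairs, those with GRdim at 6pm had the lowest values, 0.883 to 0.927, and the rest had 0.955 to 0.983. Across genotypes rho was 0.962 at 6am and 0.957 after prednisolone. In the 5 pairs with WT 6pm it was 0.610 to 0.799, highest with the other 6pm library. These correlations run across sites of 1 chromosome, neighbouring borders share surroundings and may share tags, and all libraries share any unevenness of mapping and base composition. Over nuclear loci rho was 0.326 to 0.685, at far lower counts, with a median of 11 to 18 tags per border against 74.5 to 198 for mitochondrial borders.

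**Figure D4:**
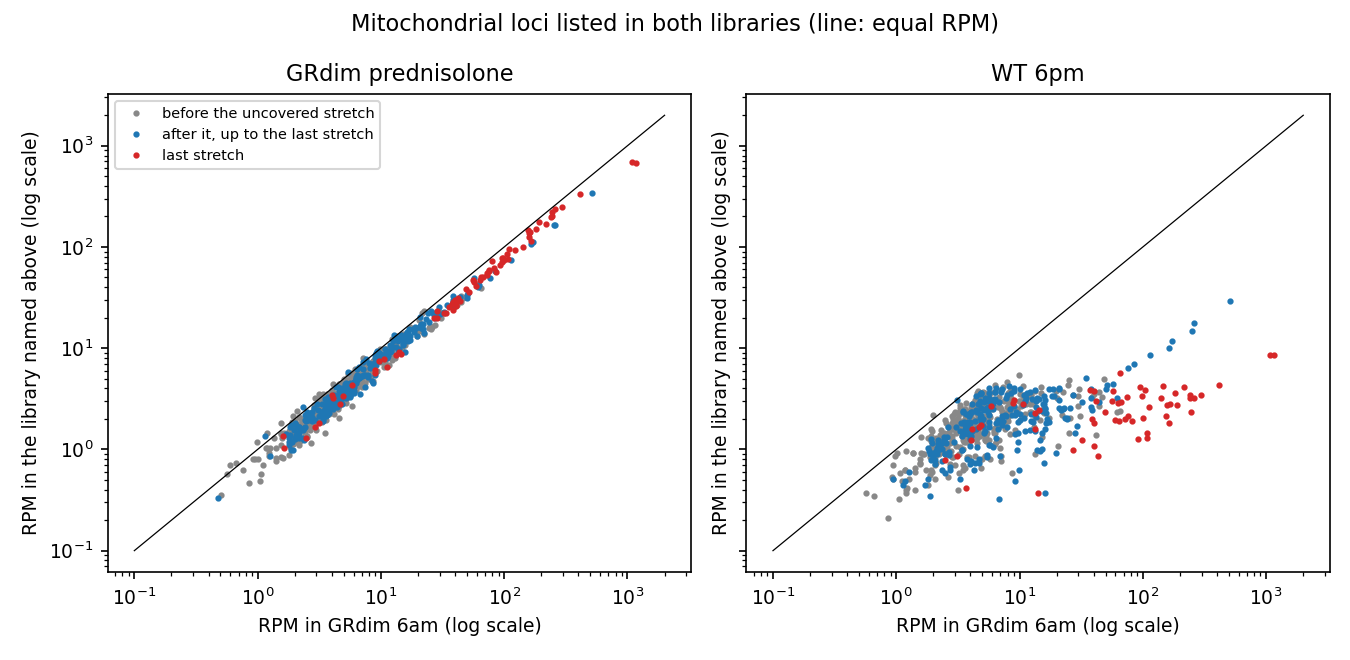
Each point is a mitochondrial locus, with its RPM in GRdim 6am (x axis) against that in GRdim prednisolone (left) or WT 6pm (right), on log axes, coloured by stretch of the chromosome; the line marks equal RPM. On the left the points follow 1 narrow band (rho 0.983), while on the right (rho 0.645) the loci of the last stretch lie far below the line, at no more than 8.58 RPM.

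The lower agreement of WT 6pm was not limited to the end of the numbering. Over loci that start before 15000 its rho with the other libraries was 0.613 to 0.832, and over those from 15000 on 0.523 to 0.617, across 57 to 62 loci. In the other 10 pairs it was 0.852 to 0.978 and 0.934 to 0.996. The tags were also less concentrated in WT at 6pm: the 10 strongest borders held 7.25% of its mitochondrial tags, against 20.6% to 34.3% in the 5 other libraries.

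Loci were then compared 1 by 1 between libraries, as log2 ratios of RPM over loci listed in both, beside the share of all loci, nuclear ones included, that were past 2-fold. Most of all loci were nuclear, where the median border held 11 to 18 tags, against 74.5 to 198 for mitochondrial borders. The part of these lower counts in the shares past 2-fold was not tested. At 6am, WT was lower than GRdim at 689 of 719 mitochondrial loci, with a median log2 ratio of -0.55 against -0.28 for all loci, although the median turned to 0.39 when scaled to mitochondrial tags. There, 102 mitochondrial loci (14.2%) were at least 2-fold lower and none higher, where 10.3% of all loci were lower and 7.84% higher. At 6pm the median was -0.58 over 679 loci, against 0.81 for all loci, and 0.81 when scaled to mitochondrial tags. Of these, 180 (26.5%) were at least 2-fold lower in WT, against 1.98% of all loci, and none higher, against 40.7%. After prednisolone the median was -0.69 over 718 loci, against 0.01 for all loci, and 161 (22.4%) were at least 2-fold lower in WT, against 6.86% of all loci, and none higher, against 15.2%. The mitochondrial loci were thus mostly lower in WT than in GRdim per library tag, by a median of less than 2-fold.

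The loci at the ends of these distributions, among those with at least 20 tags in both libraries, lay in different places. At 6am the lowest ratios of WT to GRdim were on the minus strand at 12917, with 14.1 against 76.1 RPM (0.186 times, 0.171 to 0.201), and at 12900, with 22.6 against 114 RPM. The highest were weak plus-strand borders at 1809 and 11594, at 1.37 (0.893 to 2.16) and 1.32 times (0.980 to 1.81). At 6pm the lowest ratios were those at 16021 to 16023 on the plus and 15537 on the minus strand, 33.2-fold and 30.2-fold lower in WT. The highest were plus-strand borders at 4542 and 13654, at 1.51 and 1.47 times, with intervals that reach below 1. After prednisolone the lowest were at 2769 on the plus strand, with 5.28 against 22.1 RPM, and at 14056 on the minus strand, with 3.18 against 12.0 RPM. The highest were plus-strand borders at 258, with 21.1 against 11.0 RPM (1.92 times, 1.72 to 2.13), and at 438, with 5.98 against 3.17 RPM.

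Between 6am and 6pm most mitochondrial loci were lower at 6pm in both genotypes. These comparisons share the 6am libraries with those of prednisolone, and the genotype comparisons use the same libraries again. In WT 665 of 690 loci were lower, with a median log2 ratio of -1.07 against 0.84 for all loci, which turned to 1.24 when scaled to mitochondrial tags. There, 366 loci (53.0%) were at least 2-fold lower at 6pm, against 2.35% of all loci, and 1 was higher, against 40.5%. In GRdim 678 of 682 were lower, with a median of -0.99 against -0.15 for all loci, and 0.87 when scaled to mitochondrial tags. Of these, 334 (49.0%) were at least 2-fold lower, against 9.97% of all loci, and none higher, against 3.15%. The medians of the genotypes were alike, while the ends of the distributions were not. In WT the lowest loci were 16021 to 16023 on the plus strand and 15521 on the minus strand, 55.7-fold and 54.3-fold lower. In GRdim they were 13164 and 13151 on the minus strand, 14.1-fold and 13.5-fold lower. The highest ratios of 6pm to 6am were plus-strand borders at 2163 and 6204 in WT, at 2.02 (1.43 to 2.87) and 1.86 times, and at 12992 and 4585 in GRdim, at 1.10 and 1.05 times.

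After prednisolone most loci were somewhat lower than at 6am. In WT 627 of 728 were lower, with a median log2 ratio of -0.54 against 0.11 for all loci, although the summed mitochondrial RPM was slightly higher. At least 2-fold lower were 83 loci (11.4%), against 3.61% of all loci, and 2 were at least 2-fold higher, against 10.4%. Those 2 were plus-strand borders at 258, with 21.1 RPM after prednisolone and 10.1 RPM at 6am (2.10 times, 1.90 to 2.33), and at 438, with 5.98 and 2.91 RPM. The lowest were plus-strand borders at 2769, with 5.28 after prednisolone and 24.8 RPM at 6am, and at 13654, with 0.512 and 1.85 RPM. In GRdim 701 of 727 loci were lower, with a median of -0.40 against -0.28 for all loci, and 0.05 when scaled to mitochondrial tags. There, 6 loci (0.825%) were at least 2-fold lower, against 7.97% of all loci, and none higher, against 1.14%. The lowest in GRdim were plus-strand borders at 3245 and 4253, at 0.416 and 0.428 times, and the highest were at 1811 and 4316, at 1.22 and 1.20 times with intervals that include 1.

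The plus-strand border at 2769 was low in WT after prednisolone in both comparisons that use this library. Its RPM there was 5.28, against 24.8 in WT at 6am and 22.1 in GRdim after prednisolone. The borders at 258 and 438 were likewise high in that library in both comparisons. They were not isolated. Plus-strand borders starting below 1000 held 594 RPM in that library, against 357 in WT at 6am and 341 in GRdim after prednisolone. On the minus strand the values were 176, 225 and 337 RPM. GRdim at 6am held 580 RPM on the plus strand there. With 1 pool per condition, a difference between conditions and a difference between pools cannot be told apart.

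The distance from plus-strand to minus-strand borders differed from that of nuclear borders. In ChIP-exo a protein bound at 1 place leaves a minus-strand border downstream of a plus-strand border. Over all pairs of starts up to 60 bp apart, the commonest distance from 0 upwards was 9 bp for mitochondrial borders in WT at 6am and 8 bp in WT at 6pm. In the other 4 libraries a pair of distances tied, 8 and 9 bp in WT after prednisolone, 6 and 8 bp in GRdim at 6am, 5 and 8 bp in GRdim at 6pm and 7 and 9 bp in GRdim after prednisolone. For nuclear borders it was 11 bp in 4 libraries and 12 bp in GRdim at 6am and at 6pm. Distances of 5 to 9 bp took 6.19% to 7.49% of mitochondrial pairs and 5.04% to 5.40% of nuclear pairs, and the mitochondrial share was the higher in all 6 libraries. Distances of 10 to 12 bp took 2.48% to 3.85% of mitochondrial and 4.27% to 6.65% of nuclear pairs. Distances of 23 to 31 bp took 7.11% to 9.09% and 10.3% to 12.2%. In both of these ranges the mitochondrial share was the lower in all 6 libraries. These are shares of all pairs in the window, and the median step between mitochondrial borders of a strand was 21 to 24 bp. The part of this density in the shares was not tested.

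Over the whole window, mitochondrial pairs were closer to balance in orientation than nuclear ones, although those at 5 to 9 bp outnumbered those at -9 to -5 bp, which took 3.95% to 4.90%. Pairs with the minus-strand border upstream, at -60 to -1 bp, made up 46.8% to 47.3% of mitochondrial pairs and 32.8% to 38.6% of nuclear pairs. Pairs at -2 to 2 bp were scarce among mitochondrial pairs, with 1.24% to 1.98%. They took 2.46% to 2.92% of nuclear pairs, and the mitochondrial share was the lower in all 6 libraries. The mitochondrial counts were small, with 1936 to 2084 pairs per library and 29 to 39 at the commonest distance, and pairs of 1 library share borders, so neighbouring distances are not separated by these counts.

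**Figure D5:**
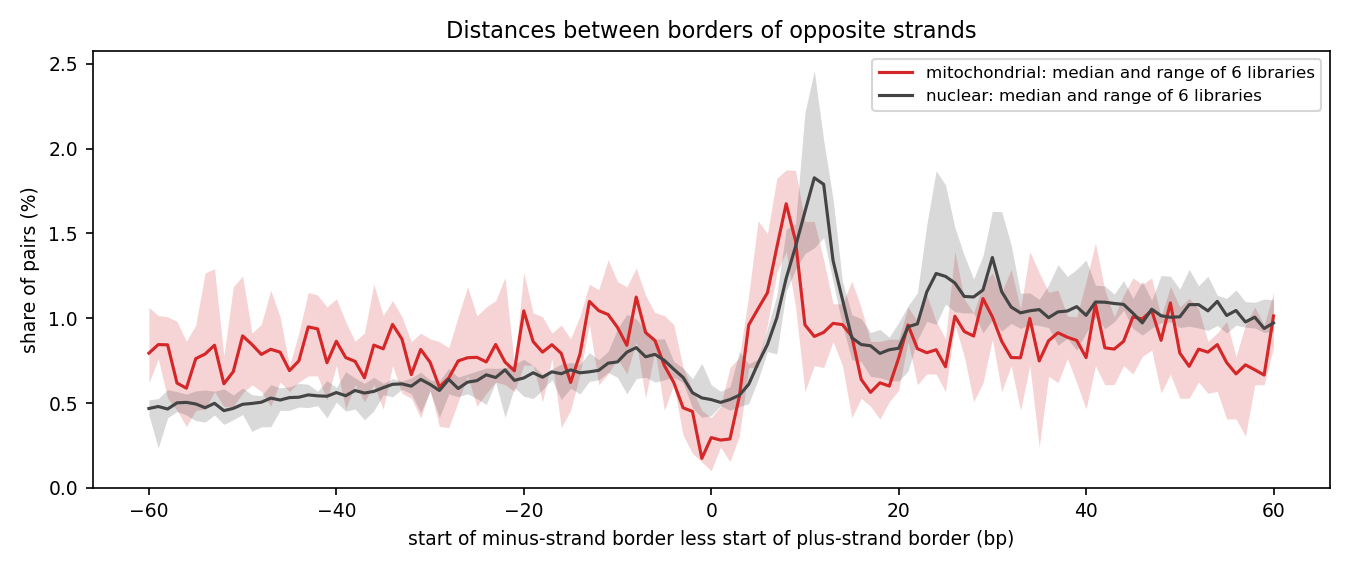
Lines give the median over the 6 libraries, and bands the range, of the percentage of pairs of opposite-strand borders at each distance in bp, for mitochondrial (red) and nuclear (grey) borders. The nuclear line peaks at 11 bp and is raised between 23 and 31 bp, while the mitochondrial line peaks at 8 bp, above its height at -8 bp, and is lowest near 0.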

How the data were processed

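The deposited ChIP-exo files give, per the file headers, a count of tags, an RPM value, a height signal and other values of unstated meaning (a standard deviation and a number of 2 or 3 here) for each 10 bp border. The authors' peak scores in the ChIP-seq lists were not used, only their chromosomes. Bowtie, HOMER and mm9 are named per the submitters' processing notes; roles, versions, the border caller and its threshold were not stated in the sources used here. Each library is a pool of 2 replicates per the labels. Tags over RPM were constant in a file to within 0.00452% for borders with at least 1000 tags and gave the library size. Loci joined borders of 1 strand with starts within 5 bp. Intervals are exact (Clopper-Pearson for shares, conditional binomial for ratios) at 95%. Tags without molecular identifiers are not independent molecules, so intervals cover counting error only. The loci named are the 5 strongest per strand in all 6 libraries, the 2 highest and 2 lowest ratios of each of 7 comparisons with at least 20 tags, the 3 strongest loci of 1 genotype and the strongest border of each library; 14285, 14259, 14248, 13150, 16014, 16035 and 16036 were named after their values were seen. The members and rules were chosen with earlier results of these data known. Alternatives were other matching distances, a common RPM minimum, other scalings, folds and pairings of strands. The mm9 sequence and annotation were not used here, so no sequence is shown. The code was tested on simulated data. Tables were computed in Python 3.11.15 (scipy 1.17.1, pandas 2.3.3, numpy 2.4.6) and drawn with matplotlib 3.10.9.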

Additional observations from a re-analysis of the deposited data

Results flagged for a closer look

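The difference between prednisolone and 6am had opposite signs in WT and GRdim for several values, with 1 pool per condition; this difference between the genotypes was not tested. The summed mitochondrial RPM after prednisolone was 1.04 times that of 6am in WT and 0.730 times in GRdim. The plus-strand share of mitochondrial tags was 6.70 percentage points higher after prednisolone in WT, and in GRdim the difference was -2.84 points. Both WT values include a plus-strand border at 16035 with 499 RPM, listed after prednisolone but not at 6am. The WT sums differed by 357 RPM, and neither value was computed without that border. The plus-strand border at 16023 stood at 1.47 times its 6am RPM in WT and 0.581 times in GRdim, and the one at 16094 at 1.57 and 0.692 times. The minus-strand borders stood at 1.26 and 0.660 times at 13164, at 1.15 and 0.837 times at 16045, and at 1.00 and 0.826 times at 15486, where the WT interval of 0.973 to 1.03 includes no change. The other 5 of the 10 strongest loci were lower after prednisolone in both genotypes.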

How the results depend on the processing

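Results that rest on RPM per locus depend on the scaling, since mitochondrial tags themselves differ between libraries. In the order WT over GRdim at 6am, 6pm and prednisolone, 6pm over 6am in WT and GRdim, and prednisolone over 6am in WT and GRdim, the median log2 ratios were -0.55, -0.58, -0.69, -1.07, -0.99, -0.54 and -0.40. Scaled to mitochondrial tags they were 0.39, 0.81, -0.26, 1.24, 0.87, -0.60 and 0.050, which reverses 5 of the 7. Scaled to all listed tags they were -0.99, -1.66, -1.09, -1.22, -0.50, -0.51 and -0.41, and scaled to nuclear listed tags -2.49, -2.08, -1.69, -1.63, -1.99, -0.47 and -1.26. With at least 20 tags in both libraries the second was -0.56, and the other 6 moved by less than the range allowed for counting error. Over loci starting before 15000, added after seeing the data, they were -0.50, -0.55, -0.70, -0.98, -0.93, -0.57 and -0.40.

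Loci lower by at least 1.5-fold numbered 329, 334, 427, 516, 543, 328 and 173, against 102, 180, 161, 366, 334, 83 and 6 at 2-fold and 25, 71, 21, 208, 140, 5 and 0 at 3-fold. The share of mitochondrial tags in WT at 6am, 6pm and prednisolone and in GRdim was 0.841%, 0.170%, 0.877%, 1.61%, 0.445% and 1.18% of all tags and 1.30%, 1.55%, 1.70%, 5.83%, 2.37% and 2.48% when borders were counted. The plus-strand share was 51.2%, 50.5%, 52.0%, 52.4%, 51.7% and 50.8% of borders. A common minimum of 0.126 RPM removed no mitochondrial border and left shares and recurrence within counting error. The loci in all libraries were 0.389% with identical starts, 29.2% within 2 bp and 58.2% within 9 bp, and leaving out 1 library gave 45.3% to 48.1%. With 0 for unlisted loci the median rho fell to 0.605 without WT 6pm and to 0.391 with it; Pearson's r, single strands and loci before 15000 stayed within the range of the pairs. Taking the shorter of tied distances, the commonest distance to the strongest minus-strand border was 11 bp in WT at 6pm, 32 bp in WT after prednisolone and 9 bp in GRdim at 6am, and within 1 bp of the main value otherwise. No paired analysis was possible because each condition is 1 pooled library. Depth limits the weak loci: WT at 6pm had a median of 74.5 tags per mitochondrial border.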

Other observations

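Other deposited values of the mitochondrial borders also differed from those of nuclear borders. The deposited standard deviation, whose definition was not stated in the sources used here, had a median of 2.78 in WT at 6pm and of 2.84 to 2.87 in the 5 other libraries, against 2.45 to 2.56 for nuclear borders. Tags spread evenly over the 10 positions of a border would give 2.87, if the value is the spread of tag positions in bp. The deposited height per RPM had a median of 0.725 to 0.734 for mitochondrial and 0.767 to 0.783 for nuclear borders. The running numbers in the border names were present for 80.7% to 86.7% of the range between the first and the last mitochondrial border of a strand, which left 66 to 98 numbers per strand and library without a listed border.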
